A study of Drosophila melanogaster with 31 samples.

Results

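RNA bound by myc-tagged Nxf2 was measured by CLIP, in which UV light crosslinks protein to RNA before immunoprecipitation (IP), in ovarian somatic cells (OSC), a cultured line of follicle cell origin from *Drosophila melanogaster*. Of the 31 samples of the series, 3 belong to the comparison: 2 samples of the IP from UV-crosslinked cells and 1 size-matched input (SMInput) from the same kind of cells. The deposited table lists 129 transposable element entries, and the 63 entries with a mean of 1 RPM (reads scaled to the library total) or more over its 4 library columns were kept. The other 66 entries had at most 3 reads in the UV IP and at most 6 in the UV SMInput. Of these, 29 had no read in any of the 4 libraries. The highest of them were GYPSY12A, BS and DMRT1A, at means of 0.918, 0.898 and 0.827 RPM, and the lowest kept were INVADER3, DMTOM1 and INVADER2, at 1.05, 1.08 and 1.12 RPM.

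The cells were OSC of a stable line expressing myc-Nxf2, grown at 26 degrees C. The labels name no knockdown for them and do not say that endogenous Nxf2 was removed, so both the tagged and the endogenous protein may have been present. The promoter of the transgene and whether the line is a single clone are not given in the sources used here. The IP used an antibody against the myc tag after UV crosslinking and a limited RNase digestion, and the RNA was taken from a membrane region holding the RNA-protein complexes. The SMInput is size-selected RNA that did not pass through the IP. A parallel pair from cells without UV (2 IP samples, 1 SMInput) stands beside it. A second experiment was made in the same line with EGFP knockdown as the control and with endogenous Nxf2 also depleted (2 IP samples, 2 SMInput samples). Values beside the members come from a CLIP of Piwi in OSC without knockdown (2 IP samples, 1 SMInput), from small RNA of a Piwi IP in such cells (1 sample), and from poly(A)+ RNA of OSC after EGFP or Nxf2 knockdown (2 samples each).

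Nxf2 belongs to the family of nuclear RNA export factors, whose founding member carries messenger RNA out of the nucleus. Nxf2 instead works with Piwi, Panx and the small RNAs bound to Piwi (piRNAs) to silence transposable elements while they are being transcribed. In follicle cells the elements under this control are mainly LTR retrotransposons of the gypsy superfamily, some of which carry a retroviral envelope gene. A CLIP signal above SMInput shows that the RNA of an element was recovered with the tagged protein more than its share of the size-matched RNA.

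Each condition has 1 column of reads, so no difference below has a replicate check. A ratio is UV IP over UV SMInput in reads per library total, with an exact 95% counting interval. An entry was called enriched at a ratio of at least 2, or depleted at 0.5 or less, with an interval excluding 1. Intervals compare these libraries only and cover counting error alone. No ratio was formed where both libraries held 3 reads or fewer, which was so for DM1731, DMRT1B and S.

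The UV IP held 1238227 reads and the UV SMInput 2746550, so 1 read was worth 0.808 and 0.364 RPM, and 3 reads 2.42 and 1.09 RPM. Without UV the IP held 426679 reads and the SMInput 1666619, and 3 reads were worth 7.03 and 1.80 RPM. Elements took 1.22% of the UV IP (Wilson 95% interval 1.20 to 1.24%) and 1.07% of the UV SMInput (1.06 to 1.08%), against 0.354% and 0.102% of the libraries without UV. The tables hold no host genes, so Nxf2 itself and host markers of follicle and germ cells were not analysed here.

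Entries classed by name as LTR retrotransposons of follicle cells (somatic LTR) made up 12 of the 22 enriched entries and 13 of all 63. Most element reads of the IP came from COPIA, which was not enriched. Of the 63 entries, 22 (34.9%) were enriched and 2 (3.17%) depleted. After centring on the median log2 ratio, 14 were enriched, 8 of them somatic LTR entries, and 7 depleted. COPIA filled most element reads of both libraries, 78.5% of those in the SMInput and 61.5% of those in the IP. All elements together were 1.14-fold (1.12 to 1.17) higher in the IP. Without COPIA the same sum was 2.05-fold (1.98 to 2.12) higher. Without COPIA, Gypsy1 and BLOOD, the entries with most IP reads, it was 2.96-fold (2.78 to 3.15) higher. These 3 entries held 94.0% of the element reads of the SMInput and 84.6% of those of the IP.

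**Figure D1:**
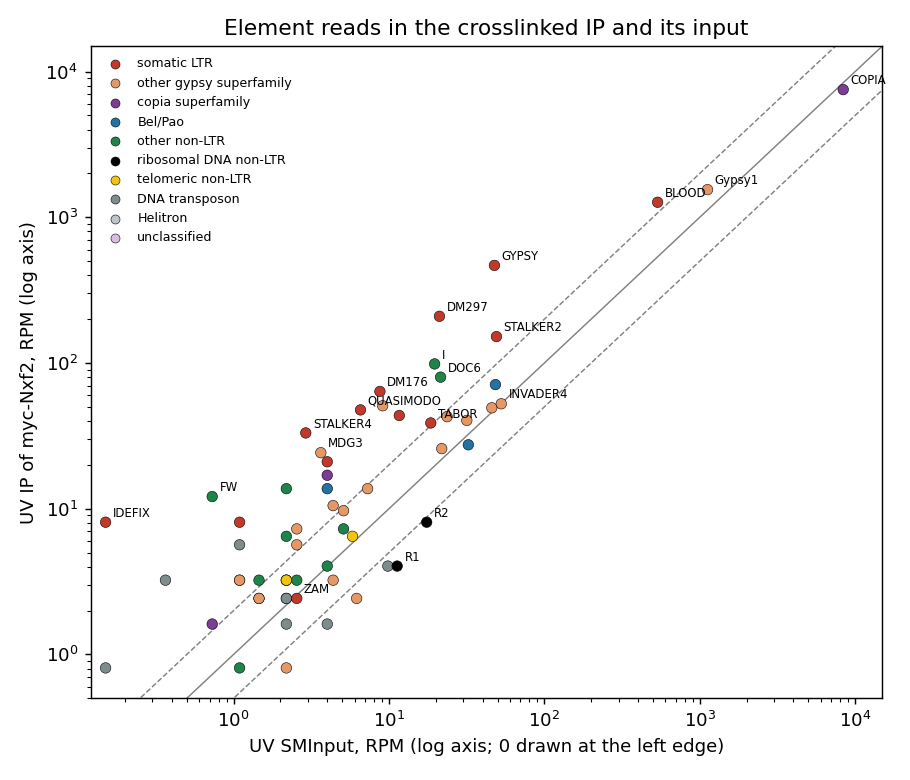
RPM of 63 element entries in the UV SMInput (horizontal, log axis) and the UV IP (vertical, log axis), coloured by class; the solid line marks equal values and the dashed lines a ratio of 2 and 0.5. GYPSY, DM297 and the other somatic LTR entries lie above the upper dashed line except ZAM, COPIA lies just under the solid line, and R1 and R2 lie below the lower dashed line.

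Among 13 somatic LTR entries with enough reads, of 19 listed, 12 were enriched and 0 depleted, and their median ratio was 7.27. Over all 60 entries with a ratio the median was 1.89. Together the 13 supplied 19.3% of the element reads in the IP and 6.65% in the SMInput, a 3.33-fold difference (3.14 to 3.53). BLOOD alone held more than the rest of the class, and without it the class ratio was 6.29 (5.67 to 6.999). With GYPSY left out as well it was 4.97 (4.37 to 5.65). After median centring 8 of the 13 were enriched.

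GYPSY, the namesake of its superfamily and an element with a retroviral envelope gene, had the most UV IP reads of them after BLOOD. It had 579 reads (468 RPM) in the UV IP and 131 reads (47.7 RPM) in the UV SMInput, with 35.2 RPM in the IP and 8.40 RPM in the SMInput without UV. The UV IP stood above the other 3 libraries, with a ratio of 9.80 to its SMInput (8.10 to 11.9). Per kb of element length GYPSY reached 66.9 RPM in the UV IP and 6.82 RPM in the UV SMInput. It took 3.83% of the element reads in the IP and 0.447% in the SMInput.

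DM297 and DM176 are sister LTR retrotransposons. DM297 had 259 reads (209 RPM) in the UV IP and 58 reads (21.1 RPM) in its SMInput, against 25.8 RPM in the no-UV IP and 7.80 RPM in the no-UV SMInput. Its ratio was 9.91 (7.43 to 13.4). DM176 had 79 reads (63.8 RPM) in the UV IP and 24 reads (8.74 RPM) in its SMInput, with 7.03 and 0.600 RPM in the IP and SMInput without UV, and a ratio of 7.30 (4.57 to 12.1). The intervals of these sisters overlapped, so a difference between them was not detectable at this depth.

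QUASIMODO, another LTR retrotransposon, had 59 reads (47.6 RPM) in the UV IP and 18 reads (6.55 RPM) in the UV SMInput, and the libraries without UV held a single IP read (2.34 RPM) and no SMInput read. Its ratio was 7.27 (4.23 to 13.1). Of the Stalker entries, STALKER4 had 41 reads (33.1 RPM) against 8 in the SMInput (2.91 RPM), a ratio of 11.4 (5.26 to 28.1), with 2.34 and 1.80 RPM in the IP and SMInput without UV. STALKER2 had more reads and a smaller ratio, 188 reads (152 RPM) against 135 (49.2 RPM), or 3.09-fold (2.46 to 3.88), with 32.8 and 1.80 RPM without UV. The intervals of the Stalker pair did not overlap.

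DM412 and MDG1 are related LTR retrotransposons that piRNAs silence in these cells. MDG1 had 54 reads (43.6 RPM) in the UV IP and 32 (11.7 RPM) in the UV SMInput, against 9.37 and 6.60 RPM in the IP and SMInput without UV. Its ratio of 3.74 (2.37 to 5.99) was under the class median. DM412 had 26 reads (21.0 RPM) against 11 (4.01 RPM), a ratio of 5.24 (2.50 to 11.8), and without UV a single IP read was found.

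BLOOD and TABOR had the lowest ratios among the enriched members of the class. BLOOD, its most abundant member, had 1570 reads (1268 RPM) in the UV IP and 1471 reads (536 RPM) in the UV SMInput. It was at 169 RPM in the no-UV IP and 43.2 RPM in the no-UV SMInput, and its ratio of 2.37 had the tightest interval of the enriched entries (2.20 to 2.54). TABOR had 48 reads (38.8 RPM) against 51 (18.6 RPM), a ratio of 2.09 (1.38 to 3.16), and without UV it had 2 IP reads and no SMInput read. Centring on the median ended the calls of BLOOD, TABOR, STALKER2 and MDG1.

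GTWIN, IDEFIX and ZAM are gypsy-superfamily elements known to be controlled by the flamenco piRNA cluster in follicle cells, and all 3 were near the detection limit. IDEFIX had 10 reads (8.08 RPM) in the UV IP, none in the UV SMInput or the no-UV IP and 1 in the no-UV SMInput. It was at least 7.39-fold higher in the UV IP than 3 counts in the SMInput, with an interval starting at 4.97. GTWIN had 10 reads in the UV IP and 3 in the SMInput, with none without UV, and a ratio of 7.39 (1.90 to 41.8). ZAM was the exception of the class, with 3 reads (2.42 RPM) in the UV IP and 7 reads (2.55 RPM) in the SMInput, and without UV it had 1 IP read and no SMInput read. Its ratio of 0.951 had an interval of 0.159 to 4.16, so a 2-fold enrichment of ZAM was not excluded at this depth. GTWIN and IDEFIX passed the level filter through their UV IP reads and were lost when the filter used the 3 other libraries, which left 10 somatic LTR entries enriched.

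**Figure D2:**
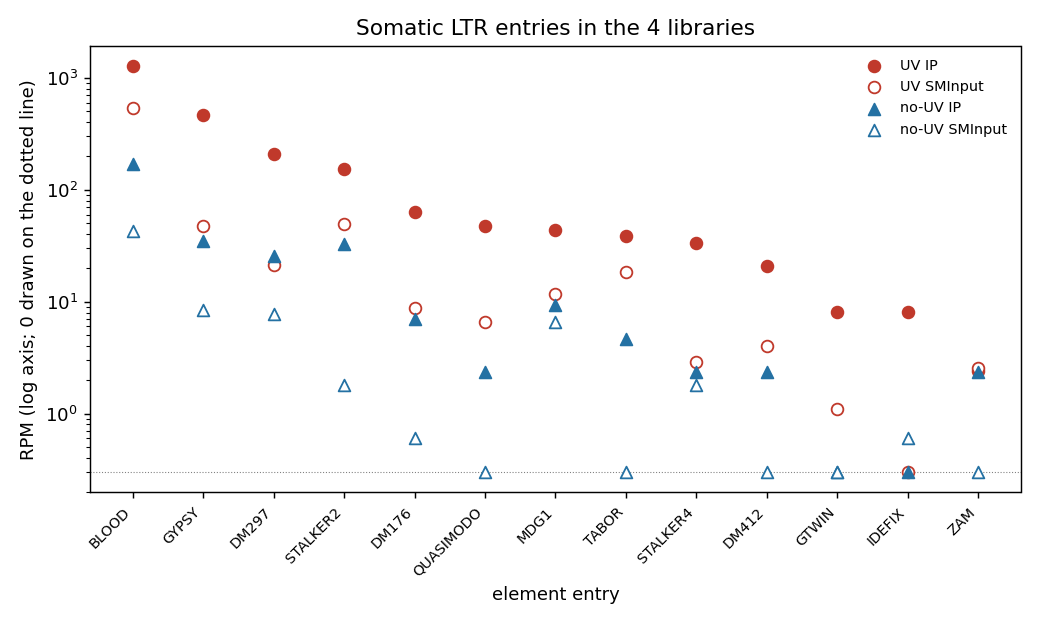
RPM (log axis) of the 13 somatic LTR entries in the UV IP, UV SMInput, no-UV IP and no-UV SMInput, 1 value per library. The UV IP is the highest of the 4 libraries for every entry except ZAM, whose UV IP (2.42 RPM) lies just under its UV SMInput (2.55 RPM).

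Of 19 other gypsy-superfamily entries tested, 3 (15.8%) were enriched, against 34.9% of all 63 entries, and 0 depleted, with a median ratio of 1.66. For 10 of the 16 not called, the interval reached 2. MDG3 had 30 reads (24.2 RPM) in the UV IP and 10 (3.64 RPM) in the UV SMInput, with none in the no-UV IP and 6 in the no-UV SMInput, and a ratio of 6.65 (3.17 to 15.3). BLASTOPIA, of the same clade, had 63 reads (50.9 RPM) against 25 (9.10 RPM), a ratio of 5.59 (3.47 to 9.27), with 4.69 and 4.20 RPM without UV. The entry spelled Gypsy2 had 13 reads against 12, with 0 and 2 without UV, and a ratio of 2.40 with an interval that barely cleared 1 (1.01 to 5.76). The separate entry GYPSY2 had 0 reads in the UV IP and 2 in the UV SMInput and was under the filter.

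Gypsy1 was the second most abundant entry and stayed under the threshold. It had 1917 reads (1548 RPM) in the UV IP and 3082 (1122 RPM) in the UV SMInput, and was at 715 RPM in the no-UV IP and 305 RPM in the no-UV SMInput. Its ratio was 1.38 (1.30 to 1.46). TRANSPAC had a ratio of 1.81 (1.23 to 2.64). INVADER1 and INVADER4, with 126 and 145 SMInput reads, had ratios of 1.07 (0.778 to 1.47) and 0.994 (0.730 to 1.34). CIRCE and GYPSY12 had ratios of 1.27 (0.882 to 1.83) and 1.18 (0.745 to 1.85). The intervals of Gypsy1, both INVADER entries, CIRCE and GYPSY12 ended below 2.

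COPIA, an LTR retrotransposon of another superfamily and the most abundant entry, was not enriched. It had 9315 reads (7523 RPM) in the UV IP and 23025 reads (8383 RPM) in the UV SMInput, with 2320 RPM in the IP and 541 RPM in the SMInput without UV. The ratio of 0.897 (0.876 to 0.919) excluded 1 but not by 2-fold. After median centring COPIA was called depleted. Copia1, a less abundant relative, had 21 reads (17.0 RPM) against 11 (4.01 RPM), a ratio of 4.23 (1.95 to 9.73), with none in the no-UV IP and 5 in the no-UV SMInput.

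Of 5 Bel/Pao entries 1 (20%) was enriched, against 34.9% of all 63 entries. ROO, one of the most numerous LTR retrotransposons of the fly genome, had 17 reads (13.7 RPM) in the UV IP and 11 (4.01 RPM) in the UV SMInput, a ratio of 3.43 (1.51 to 8.10), with none in the no-UV IP and 2 in the no-UV SMInput. DIVER had a ratio of 1.47 (1.11 to 1.94) on 88 and 133 reads. BEL, on 34 and 89 reads, had a ratio of 0.847 (0.553 to 1.27), and both intervals ended below 2.

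Among the non-LTR retrotransposons, which have no long terminal repeats and copy themselves by target-primed reverse transcription, 4 of 10 entries outside the ribosomal and telomeric groups were enriched and 0 depleted. This share of 40% was near the 34.9% over all 63 entries. The I element, the cause of the I-R type of hybrid dysgenesis, had 122 reads (98.5 RPM) in the UV IP and 54 (19.7 RPM) in the UV SMInput, with 11.7 and 3.00 RPM without UV. Its ratio was 5.01 (3.61 to 7.04). DOC6 had 99 reads (80.0 RPM) against 59 (21.5 RPM), a ratio of 3.72 (2.67 to 5.23), with 3 and 6 reads without UV. The related DOC had 17 reads against 6 and a ratio of 6.28 (2.36 to 19.5), with 4 reads (9.37 RPM) in the no-UV IP and 1 in the no-UV SMInput.

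FW, another non-LTR retrotransposon, had the highest ratio of all entries on few input reads. It had 15 reads (12.1 RPM) in the UV IP, 2 in the UV SMInput, 3 (7.03 RPM) in the no-UV IP and 1 in the no-UV SMInput. The ratio of 16.6 had an interval from 3.87 to 150. IVK, a relative of the I element, had 9 and 14 reads and a ratio of 1.43 (0.544 to 3.54).

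R1 and R2 insert into the large ribosomal RNA genes and were the depleted entries. R2 had 10 reads (8.08 RPM) in the UV IP and 48 (17.5 RPM) in the UV SMInput, with 1 read in each library without UV, and a ratio of 0.462 (0.208 to 0.925). R1 had 5 reads (4.04 RPM) against 31 (11.3 RPM), with 2 and 11 reads in the IP and SMInput without UV, and a ratio of 0.358 (0.109 to 0.928). Both upper bounds lay close to 1. TART and TART_B1, non-LTR elements that extend the telomeres, had ratios of 1.11 (0.411 to 2.75) and 1.48 (0.307 to 6.24). HETA and TAHRE, of the same telomeric group, had 1 read each in the UV pair and were under the filter.

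Of 7 DNA transposon entries 1 (14.3%) was enriched, against 34.9% of all 63 entries. PROTOP_A had 7 reads (5.65 RPM) in the UV IP and 3 in the UV SMInput, a ratio of 5.18 (1.18 to 31.0), and without UV it had 1 IP read and no SMInput read. M4DM had 5 reads against 27 and a ratio of 0.411 (0.124 to 1.08), which did not exclude 1. Of 12 elements listed as dominant in germ cells, a list that overlaps the classes above, 9 passed the filter and 2 were enriched, MDG3 and the I element. That is 22.2% of the 9, against 34.9% of all 63 entries. The 8 of the list with a ratio had a median of 1.47, against 1.89 over all 60 entries with a ratio. HETA, TAHRE and G from this list had 1, 1 and 0 reads over the UV pair. Whether germ cell RNA had a part in any ratio was not tested.

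**Figure D3:**
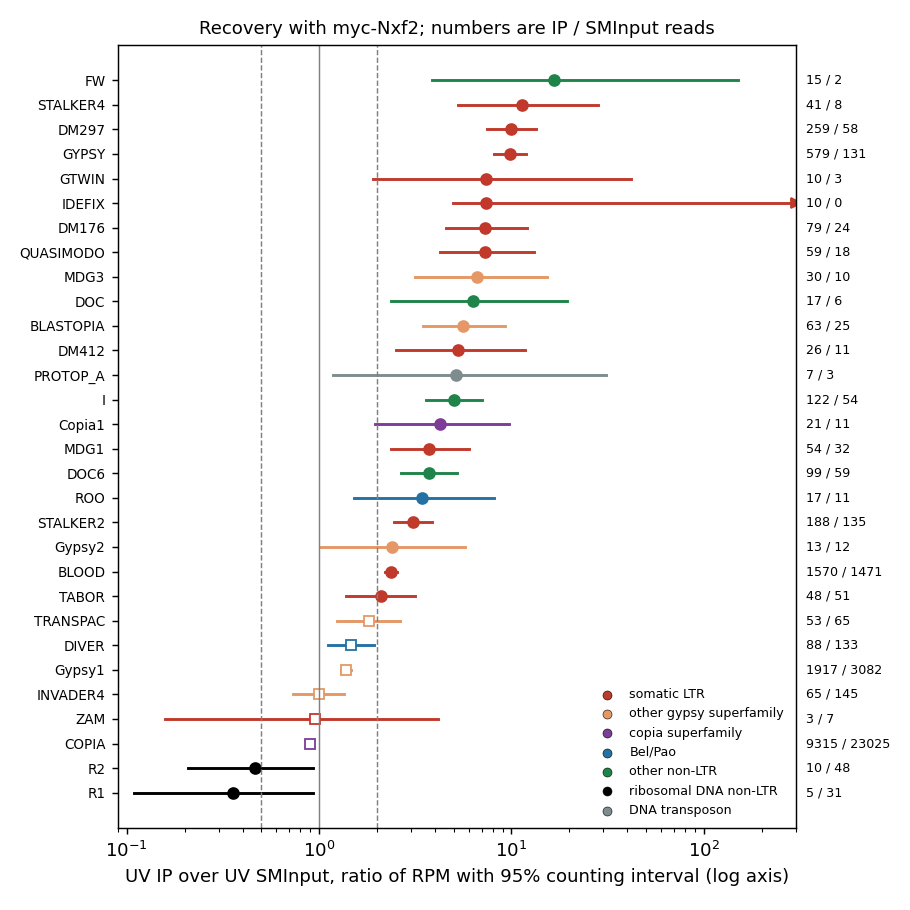
Ratio of RPM in the UV IP over the UV SMInput (log axis) for the 24 called entries (filled circles) and 6 uncalled entries for comparison (open squares); lines are 95% counting intervals, the arrow marks an open upper end, and the point of IDEFIX is a lower bound. Numbers at the right are IP and SMInput reads; the 22 enriched entries run from 2.09 (TABOR) to 16.6 (FW), and R2 and R1 lie below 0.5.

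The order of the enriched entries was resolved only in part. Sorted by ratio, the intervals of all 21 neighbouring pairs overlapped, and of all 231 pairs among the 22 entries the intervals of 37 did not. GYPSY and DM297 lay above STALKER2, BLOOD, TABOR, MDG1, DOC6 and the I element without overlap. The interval of 16 of the 22 enriched entries lay wholly above 2, and those of GTWIN, PROTOP_A, Copia1, ROO, Gypsy2 and TABOR did not. Of the 36 entries called in neither direction, 11 had an interval that ended below 2. For the other 25, a 2-fold enrichment was not excluded. Just inside the threshold were TABOR (2.09), BLOOD (2.37) and Gypsy2 (2.40). Entries with ratios above 2 that were not called had few reads, among them GYPSY4 with 9 and 7 reads (2.85, 0.945 to 9.01) and DOC2 with 8 and 6 (2.96, 0.900 to 10.3). Of the 16 entries with at least 50 SMInput reads, 7 were enriched, against 9 of 20 with 10 to 49 reads, 2 of 17 with 4 to 9 and 4 of 10 with 0 to 3. GTWIN and IDEFIX, both among the enriched entries with 0 to 3 reads, passed the level filter only through their UV IP reads. These shares therefore do not show how the calls depend on input depth.

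The UV IP was also set against the IP without UV, a comparison that shares the UV IP with the one above and rests on far fewer reads. The UV IP was higher in 21 of 63 entries (33.3%) and lower in 0, and after median centring it was higher in 11. When scaled by element reads it was higher in 6. GYPSY was 13.3-fold (7.997 to 23.9), BLOOD 7.51-fold (5.93 to 9.65) and DM297 8.11-fold (4.46 to 16.5) higher with UV than without. COPIA was 3.24-fold (3.04 to 3.47) and Gypsy1 2.17-fold (1.92 to 2.45) higher. For DOC and FW the ratios were 1.46 (0.478 to 5.98) and 1.72 (0.487 to 9.28), so a difference between crosslinked and uncrosslinked IP was not detectable for either.

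Enrichment over SMInput was also measured in the pair without UV, where elements as a whole were 3.48-fold (3.24 to 3.73) higher in the IP. Without COPIA the sum was 2.55-fold (2.28 to 2.86) higher, against 2.05-fold in the UV pair. Among the 63 entries 10 (15.9%) were enriched and 0 depleted, and 40 had too few reads for a ratio, 11 of the 22 enriched with UV among them. After median centring 1 was higher and 1 lower. Of the 10, 5 were also enriched with UV (BLOOD, DM297, DOC, GYPSY and STALKER2), which is 22.7% of the 22 and 50% of the 10. GYPSY had a ratio of 4.19 (1.88 to 9.36) without UV against 9.80 with UV, DM297 3.31 (1.34 to 7.995) against 9.91, and BLOOD 3.91 (2.78 to 5.49) against 2.37. STALKER2 had 18.2 (5.09 to 98.9), on 14 and 3 reads, against 3.09. COPIA had 4.29 (3.92 to 4.70) without UV against 0.897 with UV, and these intervals did not overlap. Scaled by library totals, enrichment over input was thus also called in the pair without UV, while median centring left 1 entry enriched there.

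The second myc-Nxf2 CLIP, with libraries of its own, recovered nearly the whole set. In EGFP-KD cells 39 of 78 entries (50%) were enriched over SMInput and 3 (3.85%) depleted. Among the 63 entries 37 were enriched and 3 depleted there, and 22 and 12 after median centring. Of the 22 entries enriched in the UV experiment 21 (95.5%) were among them, which is 53.8% of the 39. The exception was PROTOP_A, with 11 reads in the EGFP-KD IP and 22 in its SMInput and a ratio of 1.13 (0.493 to 2.42). Of the 40 other entries tested in both tables, 16 (40%) were enriched in EGFP-KD cells. All 13 somatic LTR entries were enriched there, ZAM included, which had 33 reads against 10 and a ratio of 7.43 (3.58 to 16.9). M4DM, DNAREP1 and R2 were the depleted entries, with ratios of 0.180, 0.214 and 0.256. R1, depleted in the UV experiment, was not depleted there, with 17 reads against 28 and a ratio of 1.37 (0.702 to 2.59).

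The size of the recovery was mostly smaller in the UV experiment. For 60 entries with reads in all 4 libraries, the ratio in the UV experiment divided by that in the EGFP-KD experiment had a median of 0.600, and it was above 1 for 16 and below 1 for 44. It was called lower, at 0.5 or less with an interval excluding 1, for 15 entries (25%) and higher for 1 (1.67%), CIRCE. COPIA had 10652 reads in the EGFP-KD IP and 10547 in its SMInput, a ratio of 2.27 (2.21 to 2.34) against 0.897 in the UV experiment, and the quotient was 0.395 (0.380 to 0.409). GYPSY had ratios of 9.80 and 19.0 and a quotient of 0.517 (0.409 to 0.657). QUASIMODO had ratios of 7.27 and 30.7 and a quotient of 0.237 (0.106 to 0.528), and TABOR 2.09 and 9.38 with a quotient of 0.222 (0.126 to 0.394).

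For other entries no difference between the experiments was called. Gypsy1 had like ratios of 1.38 and 1.30, with a quotient of 1.06 (0.989 to 1.14). DM297 had 9.91 and 14.1, with a quotient of 0.702 (0.493 to 1.01), so a 2-fold lower recovery was not excluded for it. Relative to the median quotient, 3 entries were lower (Gypsy2, QUASIMODO and TABOR) and 4 higher (CIRCE, DNAREP1, PROTOP_A and STALKER4). The cells of the experiments differed in siRNA treatment and, per the labels, in endogenous Nxf2, and the effect of either cannot be told apart from that of the experiment. Across the 63 entries, which are not independent replicates, the log2 ratios with a pseudocount of 1 RPM had r = 0.771 and rho = 0.763. No library is shared between the experiments, while the element entries and their lengths are.

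**Figure D4:**
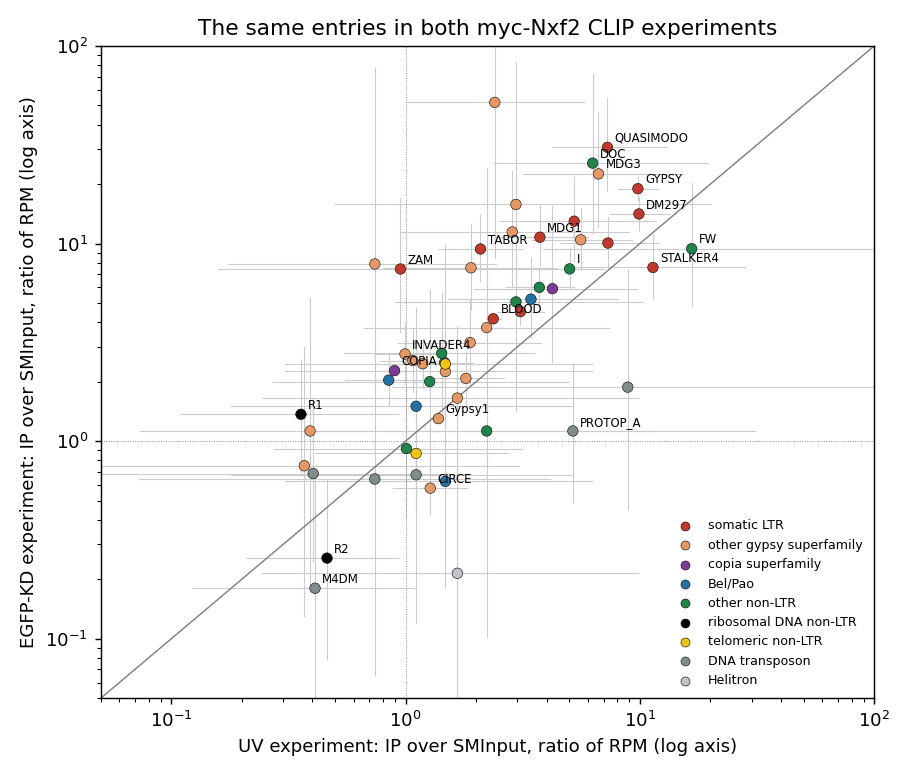
Ratio of IP over SMInput in the UV experiment (horizontal) and in the EGFP-KD experiment (vertical), both on log axes, for 57 entries with a ratio formed from reads in both; grey lines are 95% counting intervals, dotted lines mark a ratio of 1 and the diagonal marks equal ratios. Most entries lie above the diagonal, among them GYPSY, QUASIMODO and TABOR, COPIA lies left of 1 and above 1 (0.897 and 2.27), and CIRCE lies below the diagonal.

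The entries enriched with Nxf2 were mostly those matched by many Piwi-bound small RNAs. The 22 enriched entries had a median of 1541 small RNA RPM per kb of element, from 23.3 (PROTOP_A) to 4456 (DM412). The 41 other entries had a median of 23.2, from 0 (R2) to 2550 (GYPSY4). Of the 22 entries with most small RNA per kb, 18 were enriched, against 22 of all 63 entries (34.9%). These 18, like the 22 enriched entries, include GTWIN and IDEFIX, which passed the level filter only through their UV IP reads. The 4 with much small RNA that were not enriched were GYPSY4, ROVER, ZAM and HMSBEAGLE. They had 9, 4, 3 and 12 reads in the UV IP and 7, 3, 7 and 14 in the UV SMInput. All 4 intervals reached past 2, and in EGFP-KD cells these entries had ratios of 11.4, 15.8, 7.43 and 7.54, all called enriched. Enriched outside the top 22 were MDG3 (661 small RNA RPM per kb), DOC6 (573), Copia1 (70.0) and PROTOP_A (23.3). The deposited table lists Copia1 and COPIA with the same 966 small RNA reads, so their small RNA levels may not be independent values.

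Abundance of the RNA sorted the entries less clearly. In poly(A)+ RNA of EGFP-KD cells the enriched entries had a median of 9.13 RPKM and the others of 2.90. The 7 most abundant entries were COPIA (7672 RPKM), Gypsy1 (1428), BLOOD (428), POGO (164), BEL (124), STALKER2 (101) and GYPSY12 (94.0), of which BLOOD and STALKER2 were enriched. DM297 stood at 7.51 RPKM and QUASIMODO at 4.22, and both were. Small RNA of these 7 stood at 62.2, 377, 1056, 3.25, 2.72, 957 and 0.796 RPM per kb, in the same order. It stood at 2489 for DM297 and 4037 for QUASIMODO. Of the 22 entries with the highest RPKM, 9 were enriched, against 22 of all 63 entries (34.9%).

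For relations across entries, log2 ratios of UV IP over UV SMInput were taken with a pseudocount of 1 RPM, which gave all 63 entries a value. Small RNA and RPKM levels had 0.1 added before the log10. Across the 63 entries this log2 ratio had r = 0.718 and rho = 0.732 with the log10 small RNA level per kb. It had r = 0.112 and rho = 0.160 with the log10 RPKM and r = 0.160 and rho = 0.212 with element length, both weak. These are descriptions over entries that differ in read number. With at least 10 reads in the UV pair, which left 50 entries, the relation with small RNA had r = 0.752 and rho = 0.776.

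**Figure D5:**
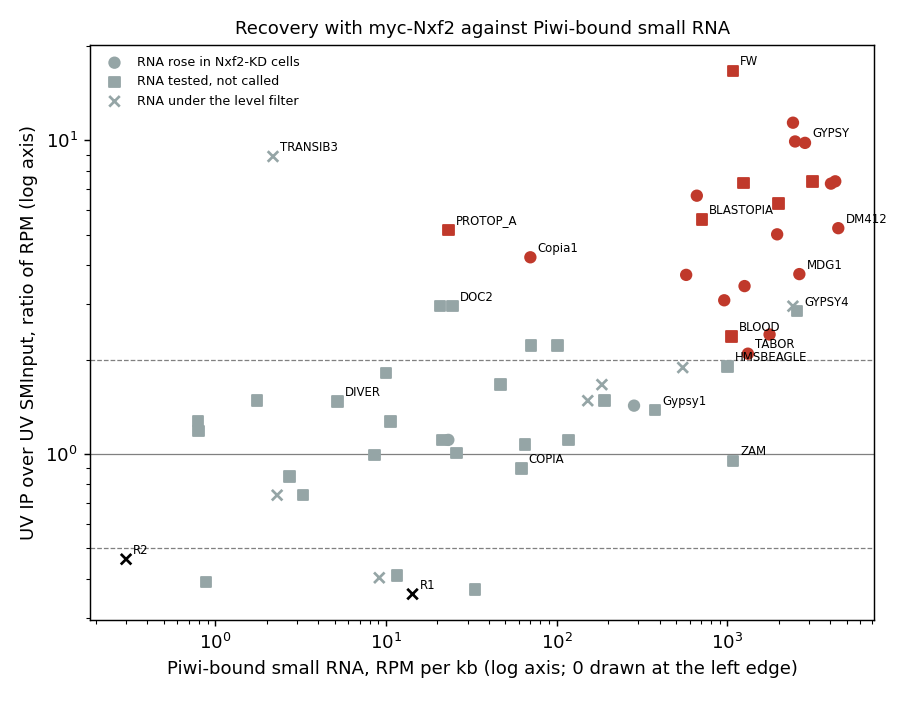
Ratio of UV IP over UV SMInput (vertical, log axis; dashed lines at 2 and 0.5) against Piwi-bound small RNA per kb of element (horizontal, log axis) for 60 entries; red entries were enriched, black depleted and grey neither, and the shape gives the call of the RNA change in Nxf2-KD cells. Most enriched entries lie at the right, with PROTOP_A and Copia1 (23.3 and 70.0 RPM per kb) to the left of them.

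CLIP of Piwi itself, against its own SMInput, enriched 56 of 98 entries (57.1%) and depleted 3 (3.06%). Among the 63 entries 45 were enriched and 3 depleted, and 17 and 14 after median centring. The 56 held all 22 entries that the UV experiment enriched, which is 39.3% of the 56, and so were 23 of the 40 other entries tested in both. For the 22 the Piwi ratios ran from 2.64 (GTWIN, at least, with no reads in the input) to 82.8 (MDG1), with a median of 15.2. With a pseudocount of 1 RPM, the log2 ratios of the Nxf2 and Piwi CLIP had r = 0.643 and rho = 0.616 across the 63 entries. Over the 50 with at least 10 reads in the UV pair they had r = 0.747 and rho = 0.715. MDG1, highest of the 22 in the Piwi CLIP, had a Nxf2 ratio of 3.74, and GYPSY, at 9.80 with Nxf2, had 19.3 with Piwi. COPIA had a Piwi ratio of 7.36. R1 and R2 were depleted with Piwi too, at 0.304 and 0.203.

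Many of the recovered elements had more poly(A)+ RNA in cells depleted of Nxf2. RNA from more cells and more RNA per cell cannot be told apart in these bulk libraries. In Nxf2-KD against EGFP-KD cells 22 of 65 entries (33.8%) rose and 0 fell. Of the 22 entries enriched in the UV IP 15 rose, with a median ratio of 2.76 over the 22, and of the 30 other members tested 2 rose, IVK and BATUMI, with a median of 1.02. The recovered entries that were not called were BLASTOPIA (1.65), BLOOD (1.66), DM176 (1.95), DOC (1.93), FW (1.85), IDEFIX (1.26) and PROTOP_A (1.70). BLASTOPIA was thus recovered 5.59-fold, while the interval of its RNA ratio (1.52 to 1.80) ended below 2. DM176 and FW were recovered 7.30-fold and 16.6-fold, FW on 2 reads in the UV SMInput. A 2-fold rise of their RNA was not excluded, with intervals of 1.74 to 2.18 and 1.64 to 2.09. With pseudocounts of 1 RPKM and 1 RPM, the log2 changes and the log2 CLIP ratios had r = 0.579 and rho = 0.636 across the 63 entries.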

How the data were processed

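Per the file headers, the authors deposited raw read counts per transposable element entry with the entry's length, and RPM values for the CLIP and small RNA libraries or RPKM values for RNA sequencing. For the Nxf2-KD RNA column the header gives no unit, and its values follow from its counts as in the other columns. Each condition has 1 column, and the labels do not say whether it pools the replicates. Per the submitters' processing notes, cutadapt, STAR, SAMtools and Bowtie were used for CLIP, with dm3 as the genome build and no role given. How reads matching several entries were assigned is not given in the sources used here, so related entries may share reads. The chromatin peak lists were not used.

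Library totals were recovered as counts over RPM (or RPKM and length). Ratios of reads per total and exact conditional binomial (Clopper-Pearson) intervals were computed with scipy 1.17.1 in Python 3.11.15, quotients of 2 ratios with the exact conditional odds ratio interval. Shares have Wilson intervals. Against 0 reads the ratio uses a floor of 3 counts. Every entry was put in 1 class by its name, and classes were completed once the names were known. All called entries, the 10 with most UV IP reads and the somatic and ribosomal classes are described in full. The members, lists and tests were chosen with earlier results of these data known. The code was run on simulated Poisson counts, which follow the same counting model as the intervals, so variation between replicates was not tested. Alternatives were other filters, pseudocounts, scalings and thresholds.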

Additional observations from a re-analysis of the deposited data

Results flagged for a closer look

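For 16 of 60 entries the recovery with myc-Nxf2 differed between the UV experiment and the EGFP-KD experiment by at least 2-fold, with a counting interval excluding 1. Each value is the ratio of IP over SMInput in the UV experiment divided by that in the EGFP-KD experiment. Among somatic LTR entries the quotient was 0.222 for TABOR, 0.237 for QUASIMODO, 0.348 for MDG1 and 0.128 for ZAM. Among other gypsy-superfamily entries it was 0.0464 for Gypsy2, 0.0938 for BURDOCK, 0.249 for GYPSY4, 0.252 for HMSBEAGLE, 0.295 for MDG3, 0.360 for INVADER4, 0.420 for INVADER1 and 0.480 for GYPSY12. The quotient was 0.395 for COPIA, 0.416 for BEL and 0.262 for R1. CIRCE alone of the 60 was called higher in the UV experiment, with a quotient of 2.20 (1.36 to 3.55). COPIA was the 1 entry whose interval lay below 1 in the UV experiment and above 1 in the EGFP-KD experiment. Gypsy2 and BURDOCK rest on 1 and 2 SMInput reads in the EGFP-KD experiment, and ZAM and R1 on 3 and 5 reads in the UV IP. The median quotient over the 60 entries was 0.600. Relative to this median, only Gypsy2, QUASIMODO and TABOR of the 16 were still called lower and CIRCE higher.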

How the results depend on the processing

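In UV IP over UV SMInput, 22 entries were enriched and 2 depleted. With no filter, a filter on the UV pair alone, or totals without element reads, the counts were again 22 and 2. Entries averaging 10 RPM or more gave 12 and 0, a fold threshold of 3 gave 19 and 0, and a pseudocount of 10 RPM gave 14 and 0. A 1.5-fold threshold gave 23 and 2, and a minimum of 10 SMInput reads 16 and 2. Pseudocounts of 1 and 0.1 RPM gave 27 and 31 enriched and 4 and 6 depleted, without an interval rule. Median centring, which shifts log2 ratios by 0.92, gave 14 and 7, and the calls of BLOOD, DOC6, Gypsy2, MDG1, PROTOP_A, ROO, STALKER2 and TABOR ended. Scaling by element reads gave 20 and 3 and ended the calls of Gypsy2 and TABOR. R1 and R2 lost their calls with the 3-fold threshold and with the pseudocount of 10 RPM. A filter on the 3 libraries other than the UV IP, chosen after seeing the data, gave 20 and 2. Somatic LTR entries enriched ran from 8 (median centring) to 12. No call of a single entry changed direction under these alternatives.

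Over the same 63 entries, with alternatives added after seeing the data, 37 were higher and 3 lower in the EGFP-KD CLIP, against 22 and 12 after median centring, 23 and 9 when scaled by element reads, and 0 lower with a pseudocount of 10 RPM. In the Piwi CLIP 45 were higher and 3 lower, against 17 and 14 after median centring, 16 and 15 when scaled by element reads, and 23 higher among entries with at least 10 input reads. The UV IP was higher than the no-UV IP in 21 (33.3%) and lower in 0. Here pseudocounts of 1 and 0.1 RPM gave 43 and 45 higher and 3 lower each, median centring 11, scaling by element reads 6, and at least 10 no-UV IP reads 6. The no-UV IP was higher than its SMInput in 10 and lower in 0, against 31 and 8 with a pseudocount of 1 RPM, 32 and 16 with 0.1 RPM, 1 and 1 after median centring, 1 and 2 when scaled by element reads, and 6 higher with at least 10 input reads. The cause of these shifts was not tested. No paired analysis was possible because each condition has 1 column without replicate numbers, and leaving out replicates was not run for the same reason. Depth limits the entries with few SMInput reads.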
